A study of Mus musculus with 31 samples.

Results

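Cells grown for 7 days from DN1 thymocytes were compared with cells grown for 7 days from DN3 thymocytes, both after loss of the transcription factors E2A and HEB was induced. The comparison rests on 4 of the 31 RNA-seq samples of the series: DN1 replicates a and b and DN3 replicates a and b. They were chosen by their labels, with earlier results of these data known. All 4 come from C57BL/6 mice homozygous for floxed alleles (E2Af/fHEBf/f) of E2A, encoded by Tcf3, and of HEB, encoded by Tcf12. Both sides also carry R26-CreERT2, a tamoxifen-inducible Cre made from the ubiquitously active Rosa26 locus, and R26-stop-tdTomato, a reporter that Cre switches on. The cells were grown on OP9-DL1, a stromal line that presents the Notch ligand DL1, with stem cell factor, IL-7 and IL-2. According to the design text tamoxifen went in on day 4 and tdTomato-positive cells were sorted on day 7. The labels of the DN1 day 7 samples instead place 4-OHT (the active form of tamoxifen) on day 7, while those of the DN3 samples place it on day 4, so the conflict runs along the comparison itself and a difference in exposure cannot be told apart from a difference of precursor. Control cells of the same Cre and reporter genotype without the floxed alleles (replicates c and d of each precursor) and the floxed cultures of days 4 and 5 were used for context. Day 4 floxed cells were taken before tamoxifen and were not sorted for tdTomato. Nothing in the labels says that replicates came from separate animals or cultures, so each p-value measures only the spread between libraries. Except where stated, that spread was estimated over all 24 culture libraries and not from the 4 compared alone.

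DN1 cells are the earliest thymocytes, still able to give several blood lineages, and DN3 cells are the stage at which T cell receptor genes rearrange and the T lineage is entered. E2A and HEB are E proteins, basic helix-loop-helix factors that bind E-box motifs and drive T cell genes, and Id proteins such as Id2 hold them inactive. When E proteins are lost, thymocytes can take up programs of innate lymphoid cells (ILC), lymphocytes without a rearranged antigen receptor. ILC2 cells use Gata3, Rora, Id2 and Zbtb16 (PLZF) and respond to alarmin cytokines, and natural killer (NK) cells carry granzymes and NK receptors.

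The recombined genes were read first. Tcf12 was at 109.9 and 107 CPM (counts scaled to library size) in DN1 replicates a and b and at 169.7 and 151 CPM in DN3, against 267 and 279 CPM in DN1 controls and 508 and 505 CPM in DN3 controls. Tcf3 was at 38.3 and 16.9 CPM in DN1 and 32.9 and 15 CPM in DN3, against 79.7 and 92.7, and 93.8 and 100.1 CPM, in the controls. All 4 floxed libraries lay below all 4 controls for both genes, although reads from exons outside the floxed part can remain after recombination. The labels state the genotype only. In floxed thymic ILC2 (last paragraph of the Results), scaled over 26 libraries, Tcf12 was at 266 and 285 CPM, above all 4 floxed cultures (105 to 165 CPM). Tcf3 was at 12.9 and 5.08 CPM there, below all 4 (14.7 to 37.2 CPM). These levels alone therefore do not measure the deletion. The 4 floxed culture libraries of day 7 hold 5908459 to 7774315 counts. DN1 replicate b stood apart: 22 skeletal muscle genes summed to 10900 CPM in it, against 108 CPM in DN1 replicate a and 128 and 208 CPM in DN3, and the difference between its counts and those of replicate a was the largest of the 12 culture groups (chi-square per degree of freedom 32.5, others 3.51 to 14). Stromal genes summed to 172 CPM in that library and to 79.9 to 108 CPM in the other 3. Of 15 stromal genes tested, 2 were higher in DN1, of which Dcn did not pass without DN1 replicate b, DN3 replicate a or DN3 replicate b (adjusted p = 0.43, 0.0755 and 0.098). Among other lineages, the summed myeloid and dendritic list was at 62.1 to 91.4 CPM in the 4 libraries, with Adgre1, Elane, Cd74 and Siglech too low to test. Cd79a, Pax5 and Ms4a1 of B cells were too low to test, and of the 3 tested Cd79b was lower in DN1, but not without DN1 replicate b, DN3 replicate a or DN3 replicate b (adjusted p = 0.175, 0.116 and 0.0975). Both floxed groups were high in Xist and low in Y-linked genes and the controls the reverse, so a difference between floxed and control cells goes with sex and the 2 cannot be told apart. Of 5 sex-linked genes, edgeR passed none between the 4 floxed libraries, while DESeq2 passed 1 and 1 had an unadjusted p under 0.05. A change was therefore required in 2 fits: one with all libraries and one without DN1 replicate b.

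Of 15172 genes tested, 3343 (22.0%) differed between DN1 and DN3 floxed cells at an adjusted p under 0.05, with 1780 (11.7%) higher in DN1 and 1563 (10.3%) lower. Of these, 1879 (12.4% of all genes tested), 964 higher (6.35%) and 915 lower (6.03%), also passed with the same sign when DN1 replicate b was left out, and the other 1464 did not. The median log2 change over all tested genes was 0.00685, as the scaling, which centres most genes near 0, sets it. For 50.4% of all tested genes both libraries of one precursor lay above both of the other, against which any remark on groups that do not overlap is to be read. The count was 5172 without DN1 replicate a, 2114 without DN3 replicate a and 1806 without DN3 replicate b, and 587 when the 4 libraries were fitted alone, with the spread taken from them only. In these bulk samples, fewer cells that express a gene and less of its RNA per cell cannot be told apart. Except for muscle genes, 124 genes from the lists below or among the 30 named by size passed, and 84 of the 124 also passed in each of the 4 fits that leave out 1 of the 4 libraries. The other 40 are given with their lists, with the library and the adjusted p without it. With the 4 libraries fitted alone, 50 of the 124 did not pass, among them Id2, Il17rb, Ccl5, Lat, Lcp2, Hes1, Dtx1, Lyl1, Bcl11a, Tcf12, Tcf4, Gata1, Mcm5 and Tyms, with adjusted p-values from 0.0503 (Bcl11a) to 0.194 (Hes1). A further 5 of the 124 were not tested in that fit.

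**Figure D1:**
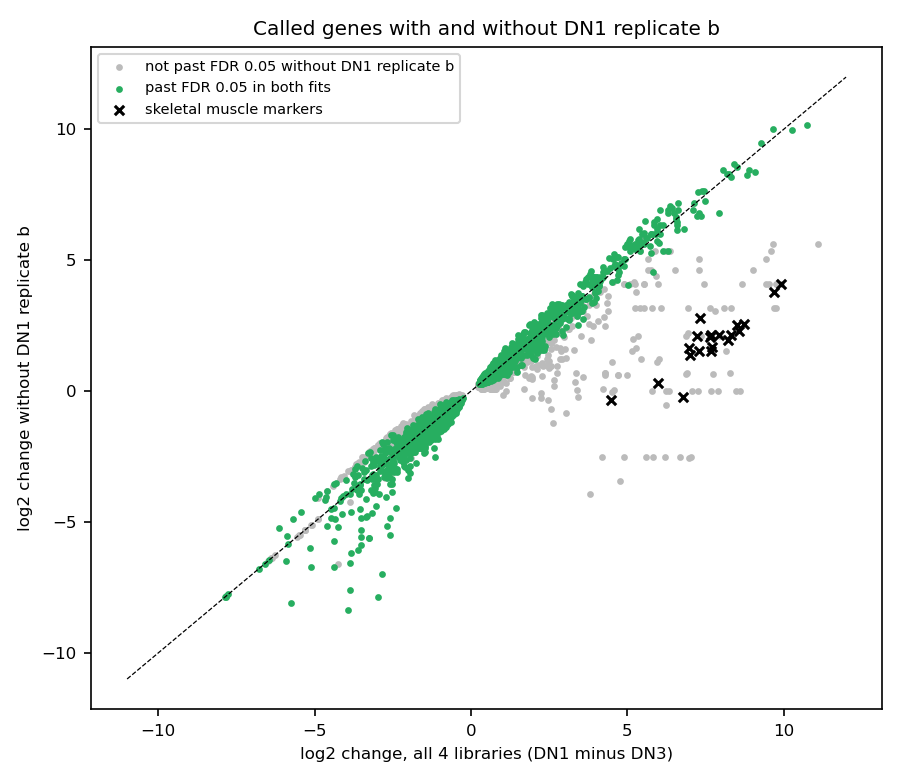
Log2 change from DN3 to DN1 floxed cells on day 7 for the 3343 genes that passed, with all libraries (horizontal axis) and without DN1 replicate b (vertical axis). Green points passed in both fits (1879 genes), grey points in the first alone, and crosses mark skeletal muscle genes, which lie far to the right and fall back toward 0 without that library.

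By the size of the change, 30 genes were named, 15 in each direction, from those that passed in both fits and did not overlap between the groups. Passing both fits and the lack of overlap were thus set by the rule and are no further support. All 30 kept the sign of their change in the 4 fits that leave out a library, which the lack of overlap also fixed in advance. Hmga2, a chromatin protein of fetal and stem cells, had 415 counts over the DN1 libraries (18.6 and 37.4 CPM) and none over the DN3 libraries, at least 119-fold higher. Rxrg, a retinoid X receptor, had 356 counts against 3, a ratio of 102 (95% counting interval 34.5 to 495). Both DN1 libraries lay far above both DN3 libraries for each of these genes. The surface lectins Clec4e (104 and 84.5 against 3.13 and 1.12 CPM, log2 change 5.52 ± 0.39, adjusted p = 1.87e-08) and Clec4d (4.70 ± 0.53, adjusted p = 4.46e-06) and the chemokine receptor Cx3cr1 (121 and 105 against 5.57 and 2.11 CPM, 4.92 ± 0.31, adjusted p = 5.18e-09) were higher in DN1, as was Trf, the iron carrier transferrin (139.7 and 93.5 against 1.04 and 3.52 CPM, 5.61 ± 0.32, adjusted p = 1.96e-09). The others higher in DN1 were Auts2, St3gal6, Hbb-bt, Nrgn, Kif13a, Wdfy4, Napsa, Chn2 and Zbtb16. Clec4e, Clec4d and Cx3cr1 are known from myeloid cells. The summed myeloid list was at 80.4 and 62.1 CPM in DN1 and at 86 and 91.4 CPM in DN3, but the sum and the median went opposite ways, since the median log2 change of its 13 tested genes was 1.43 toward DN1. Of the 13, Csf1r, the receptor for macrophage colony stimulating factor, was higher in DN1 at under 2 CPM, and not without DN1 replicate b, DN3 replicate a or DN3 replicate b (adjusted p = 0.111, 0.108 and 0.145). Lower were Cebpb, though not without DN1 replicate b or DN3 replicate a (adjusted p = 0.0673 and 0.0877), and Irf8, though not without DN1 replicate b or DN3 replicate b (adjusted p = 0.0506 and 0.0504). The part of myeloid cells in these changes was not tested.

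Lower in DN1 were T cell genes and several genes of other kinds. Cd3e, Cd3d, Cd2 and Zap70, parts of T cell receptor signalling, were among the 15. Prkcb, a protein kinase C, stood at 7.07 and 6.64 CPM in DN1 and 110.3 and 108 CPM in DN3 (log2 change -3.99 ± 0.45, adjusted p = 4.17e-06). Ptpn13, a protein tyrosine phosphatase, stood at 2.57 and 4.98 against 72.4 and 81.7 CPM (-4.36 ± 0.41, adjusted p = 5.69e-07). In each case the DN3 libraries lay close together, well above both DN1 libraries. S1pr1, the receptor with which lymphocytes leave tissue toward blood, was at 19.4 and 19.8 against 202 and 253 CPM (-3.54 ± 0.39, adjusted p = 2.94e-06), and Iigp1, an interferon-inducible GTPase, at 2.31 and 2.08 against 32.7 and 45.8 CPM (-4.15 ± 0.28, adjusted p = 8.95e-09). Chst10, Hdgfl3, Pdlim4, Ly6d, Tmcc3, Ecm1 and H2-Q2 complete the 15. H2-Q2 belongs to a family of near-identical genes, so reads may be split among its copies and its value is uncertain. Tmcc3 and H2-Q2 were the 2 of the 30 that did not pass when the 4 libraries were fitted alone (adjusted p = 0.0523 and 0.0691).

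**Figure D2:**
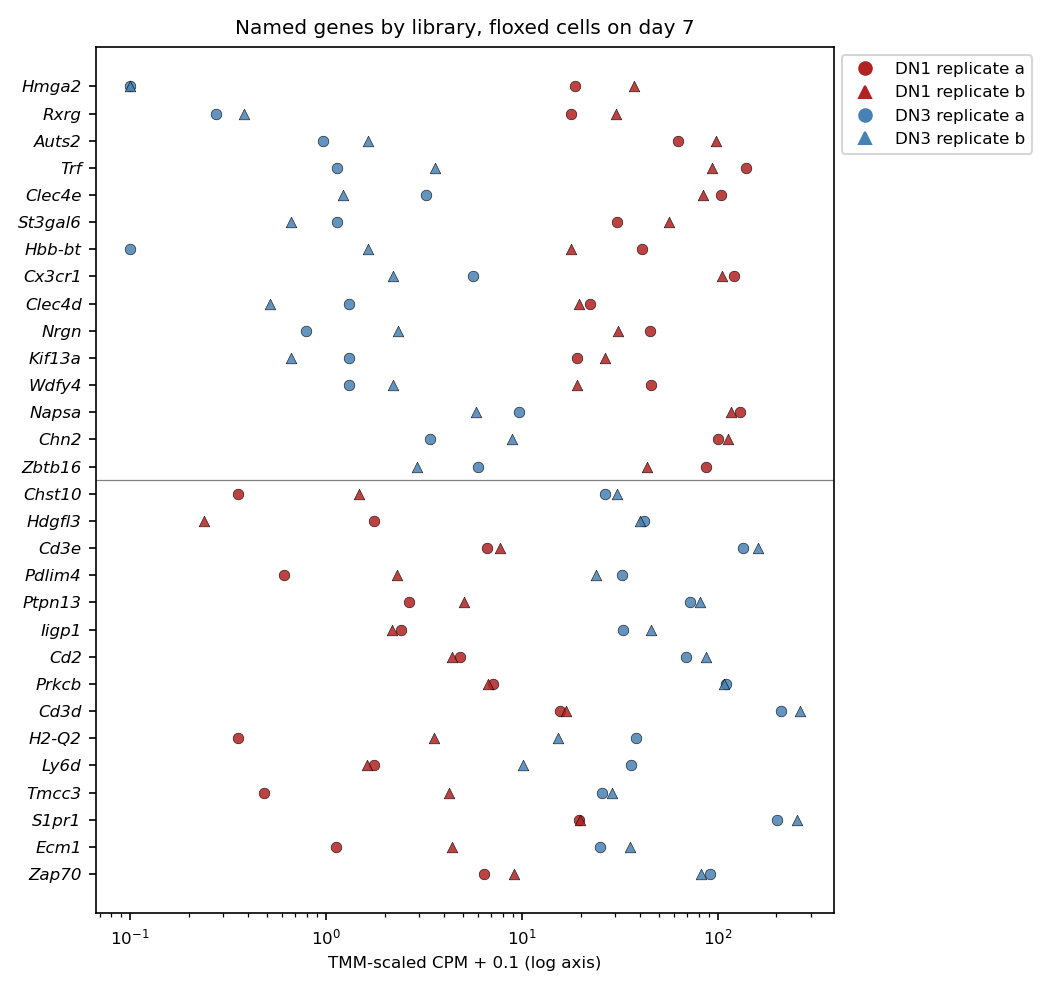
CPM plus 0.1 on a log axis in the 4 floxed libraries of day 7 for the 30 genes with the largest changes that passed with and without DN1 replicate b. The 15 genes above the line are higher in DN1 and the 15 below it lower. For each gene both libraries of one precursor lie on one side of both libraries of the other, as the rule that named them required.

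The ILC2 transcription factors did not move one way. Of 15 tested, 8 were higher in DN1 and 4 lower, 6 and 3 of them also without DN1 replicate b, and the median log2 change of the list was 0.933 beside 0.00685 over all genes. The count higher was 5 without DN3 replicate a. Zbtb16 (chr9:48654297-48836222, minus strand), which encodes PLZF, a factor of ILC precursors and innate-like T cells, was at 87.7 and 43.5 CPM in DN1 and 5.92 and 2.81 CPM in DN3 (log2 change 3.94 ± 0.42, adjusted p = 3.55e-06). Id2 (chr12:25093799-25097140, minus strand), the E protein inhibitor that all ILC need, was at 496 and 943 CPM in DN1 and 295 and 354 CPM in DN3 (1.15 ± 0.20, adjusted p = 0.000393). The DN1 libraries lay above the DN3 libraries for both genes, but DN1 replicate b, the library with muscle RNA, carried the highest Id2, and without it the change was 0.62 (adjusted p = 0.0064). The adjusted p of Id2 with the 4 libraries alone was 0.095.

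Lmo4, a LIM-only adaptor protein, was at 2056 and 2331 CPM in DN1 and 495 and 759 CPM in DN3 (log2 change 1.81 ± 0.23, adjusted p = 1.55e-05). Tox, a factor of early ILC development, was at 499 and 489 against 216 and 229.7 CPM (1.15 ± 0.14, adjusted p = 8.86e-06). Rora, the nuclear receptor required for ILC2, was at 604 and 558 against 175 and 231 CPM (1.51 ± 0.34, adjusted p = 0.00339). For these 3 genes the groups did not overlap, although Rora had an adjusted p of 0.0529 without DN3 replicate a. Maf, also higher (0.93 ± 0.30, adjusted p = 0.0308), had adjusted p-values of 0.098, 0.178 and 0.0895 without DN1 replicate b, DN3 replicate a and DN3 replicate b. Pparg passed as well at under 2 CPM, but not without any of those 3 libraries (adjusted p = 0.171, 0.0672 and 0.229). Gata3, the master factor of both ILC2 and early T cells, was at 542 and 424 CPM in DN1 and 643 and 692 CPM in DN3 and did not pass (-0.47 ± 0.19, adjusted p = 0.0911).

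The members lower in DN1 were Ets1, Bhlhe40, Bcl11b and Gfi1. Ets1, an ETS factor of lymphocytes, was at 104 and 113 CPM in DN1 and 312 and 321 CPM in DN3 (log2 change -1.54 ± 0.17, adjusted p = 3.96e-06). Bcl11b, which T cells and ILC2 both need, was at 523 and 432 against 923 and 804 CPM (-0.85 ± 0.12, adjusted p = 4.81e-05), and Bhlhe40, a helix-loop-helix repressor, at 25.9 and 25.2 against 75.3 and 67.2 CPM (-1.48 ± 0.15, adjusted p = 1.76e-06). All 3 were lower in both DN1 libraries than in either DN3 library. Gfi1, a zinc finger repressor, no longer passed without DN1 replicate b (adjusted p = 0.084) or DN3 replicate a (0.162). Tcf7, an early T and ILC factor, and Nfil3 did not pass (adjusted p = 0.172 and 0.228).

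**Figure D3:**
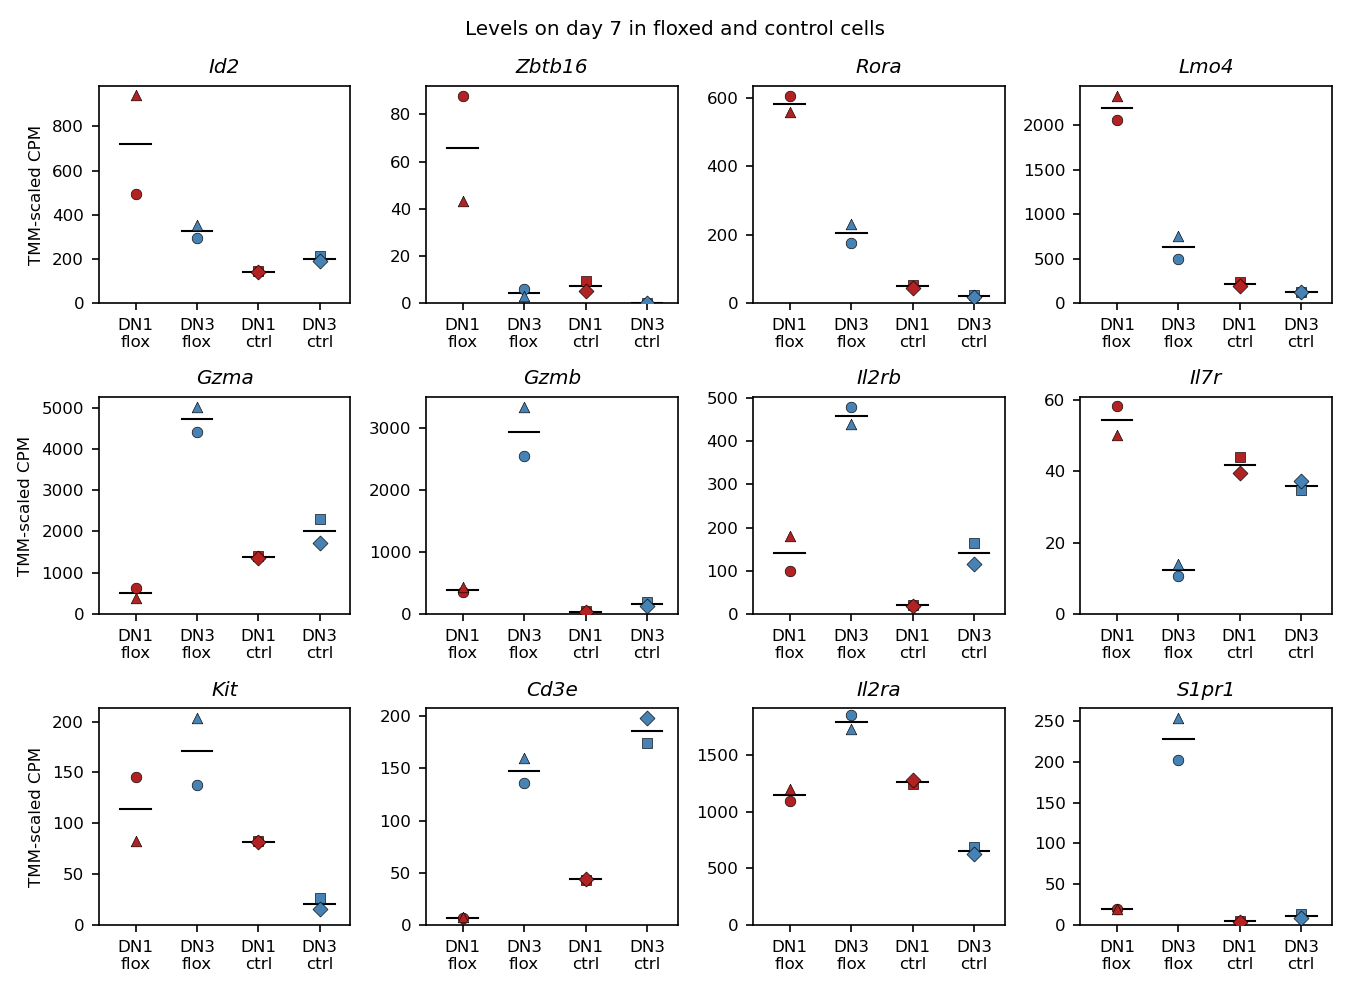
CPM on linear axes from 0 for 12 genes in the day 7 libraries, floxed and control, by precursor. Each point is a library (circle a, triangle b, square c, diamond d) and each line a group mean, and in the floxed cells Id2, Zbtb16, Rora, Lmo4 and Il7r lie higher from DN1 while Gzma, Gzmb, Il2rb, Cd3e, Il2ra and S1pr1 lie higher from DN3, with Kit overlapping between them.

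Among receptors and surface proteins of ILC2, 19 of 22 could be tested, and 3 were higher in DN1 and 4 lower (3 and 3 also without DN1 replicate b; list median 0.0574). The count lower was 2 without DN3 replicate b. Il7r, the receptor for the IL-7 in the medium, was at 58.4 and 50.1 CPM in DN1 and 10.6 and 14.1 CPM in DN3 (log2 change 2.13 ± 0.25, adjusted p = 5.60e-06). The IL-18 receptor chain Il18r1 was at 31.5 and 54.9 against 5.05 and 8.86 CPM (2.62 ± 0.40, adjusted p = 0.000115), and the IL-25 receptor chain Il17rb at 113 and 119 against 68.2 and 73.1 CPM (0.71 ± 0.12, adjusted p = 0.000283). Both DN1 libraries exceeded both DN3 libraries for these receptors, most widely for Il18r1 in log2 terms. Il2ra, the IL-2 receptor alpha chain and a DN3 marker, was lower in DN1 at 1096 and 1205 against 1856 and 1734 CPM (-0.64 ± 0.1, adjusted p = 0.00014), and so was Thy1, a surface marker of T cells and ILC, at 164 and 159.7 against 287 and 296 CPM (-0.85 ± 0.11, adjusted p = 1.39e-05). Ly6a was lower too, though not without DN3 replicate b (adjusted p = 0.0611), and Ccr4 lost its call in each of the 4 fits that leave out a library (adjusted p = 0.0789, 0.062, 0.0749 and 0.188). Il1rl1, the IL-33 receptor that defines many ILC2, was near 0 from both precursors, at 0 and 0.553 CPM in DN1 and 0.696 and 1.12 CPM in DN3, and Ptgdr2, Nmur1 and Ccr8 were too low to test. Icos overlapped between the groups at 246 and 461 against 247 and 358 CPM.

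Type 2 cytokines gave no call in the main fit. Of 10 listed, Il5, Il9, Il10, Csf2, Areg and Calca were too low to test. Il13 was at 13.6 and 36.8 CPM in DN1 and 5.22 and 13.6 CPM in DN3 (log2 change 1.40 ± 0.54, adjusted p = 0.0698), and Il4 at 3.47 and 3.6 against 6.44 and 11.8 CPM (-1.37 ± 0.52, adjusted p = 0.0728). None of the 4 tested passed in the main edgeR fit or with DESeq2, while 3 had an unadjusted p under 0.05. With the replicate letter as a block in edgeR, Il13 passed as higher in DN1 (adjusted p = 0.03985) and Lta as lower (adjusted p = 0.0468). Il13 overlapped between the groups and Il4 did not.

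Granzymes, the proteases of killer cells, differed by more. Gzmb (chr14:56258838-56262260, minus strand) was at 352 and 430.2 CPM in DN1 and 2552 and 3340 CPM in DN3 (log2 change -2.91 ± 0.46, adjusted p = 0.000164). Gzma (chr13:113093825-113100981, minus strand) was at 639.6 and 392 against 4417 and 5024 CPM (-3.19 ± 0.19, adjusted p = 2.57e-09). Every DN3 library held at least several times the level of every DN1 library for both. Of the 15 granzyme and effector genes tested, 4 were lower in DN1 and 2 higher (3 and 1 also without DN1 replicate b; median -0.587) and 2 lower without DN3 replicate b, while Gzmc, Gzmd, Gzme, Gzmf, Gzmg and Gzmk were too low to test. Prf1, which encodes perforin, was at 1.93 and 1.38 against 6.09 and 12.4 CPM (adjusted p = 0.00855, but 0.141 without DN3 replicate b), and the chemokine Xcl1 was lower at under 4 CPM (adjusted p = 0.199, 0.096 and 0.136 without DN1 replicate b, DN3 replicate a and DN3 replicate b). The chemokine Ccl5 went the other way, at 30.7 and 11.1 CPM in DN1 and 2.09 and 5.48 CPM in DN3 (2.43 ± 0.51, adjusted p = 0.00198). Lamp1, a lysosomal protein, was higher by 0.35 on the log2 scale, and not without any of the same 3 libraries (adjusted p = 0.44, 0.146 and 0.0774). Nkg7, a granule protein, was at 221 and 269 against 223 and 272 CPM and did not pass.

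NK genes were largely low. Of 21 listed, 9 were too low to test, Eomes, Ncr1, Klrb1c and Klrk1 among them, and of the other 12, 4 were higher in DN1 and 1 lower (3 and 1 also without DN1 replicate b; median 0.698). The one lower was Il2rb, the IL-2 and IL-15 receptor beta chain, at 100.2 and 180.3 CPM in DN1 and 479.6 and 439 CPM in DN3 (log2 change -1.71 ± 0.34, adjusted p = 0.00146). Those higher were signalling adaptors and surface receptors. Fcer1g, an adaptor of activating receptors, was at 19.2 and 15.6 against 1.39 and 0.562 CPM (4.19 ± 0.62, adjusted p = 7.95e-05), and Tyrobp, the adaptor DAP12, at 6.94 and 4.84 against 0.522 and 0.844 CPM (3.06 ± 0.73, adjusted p = 0.00577, but 0.0554 without DN3 replicate a). Cd160 (adjusted p = 0.0281) and Cd244a (adjusted p = 0.0193) each lost the call in 3 of the 4 fits: Cd160 without DN1 replicate b, DN3 replicate a and DN3 replicate b (adjusted p = 0.15, 0.21 and 0.0519), and Cd244a without DN1 replicate a, DN3 replicate a and DN3 replicate b (0.0957, 0.0529 and 0.169). Tbx21, the factor T-bet, was at 1.54 and 1.25 against 2.26 and 3.23 CPM and did not pass. The count higher in DN1 was 1 without DN3 replicate a and 2 without DN3 replicate b.

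Genes of the CD3 complex and of T cell receptor signalling differed in 1 direction. Of 18 tested, 13 were lower in DN1 and none higher (11 also without DN1 replicate b, 11 to 12 over the 4 fits that leave out a library), with a median log2 change of -1.06. Because the 3 CD3 genes with the widest difference lie side by side on chromosome 9 and E proteins bind E-boxes, their promoters are shown, with that of Gzma, which also was lower in DN1, as windows from 250 bases before to 50 bases after the gene start in RefSeq (GRCm38.p6). Capitals mark the E-box CAGGTG, read on either strand and so also as CACCTG, and the E-box CAGCTG.
Cd3d (chr9:44981536-44981835, plus strand): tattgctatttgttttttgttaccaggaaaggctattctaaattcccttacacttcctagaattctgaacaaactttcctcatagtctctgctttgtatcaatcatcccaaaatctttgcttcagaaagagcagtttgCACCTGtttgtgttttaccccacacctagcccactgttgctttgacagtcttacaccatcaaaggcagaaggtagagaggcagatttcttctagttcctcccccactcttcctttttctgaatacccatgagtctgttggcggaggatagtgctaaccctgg
Cd3e (chr9:45009562-45009861, minus strand): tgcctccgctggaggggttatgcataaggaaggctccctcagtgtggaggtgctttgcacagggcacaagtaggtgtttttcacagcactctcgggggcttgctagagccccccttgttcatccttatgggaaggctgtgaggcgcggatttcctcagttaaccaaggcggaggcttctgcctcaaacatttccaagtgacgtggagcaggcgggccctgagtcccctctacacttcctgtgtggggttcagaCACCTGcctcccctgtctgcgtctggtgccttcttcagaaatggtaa
Cd3g (chr9:44980382-44980681, minus strand): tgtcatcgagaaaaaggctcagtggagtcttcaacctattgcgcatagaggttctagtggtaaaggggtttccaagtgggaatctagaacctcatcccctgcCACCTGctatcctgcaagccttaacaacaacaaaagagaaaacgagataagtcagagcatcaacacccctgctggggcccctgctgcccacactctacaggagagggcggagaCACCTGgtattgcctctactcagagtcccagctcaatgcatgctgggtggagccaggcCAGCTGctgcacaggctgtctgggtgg
Gzma (chr13:113100932-113101231, minus strand): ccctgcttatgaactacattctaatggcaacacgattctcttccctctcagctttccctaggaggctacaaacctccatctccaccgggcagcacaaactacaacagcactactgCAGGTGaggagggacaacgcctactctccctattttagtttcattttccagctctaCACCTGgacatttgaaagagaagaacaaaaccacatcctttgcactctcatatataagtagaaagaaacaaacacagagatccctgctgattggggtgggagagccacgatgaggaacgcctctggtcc
CAGGTG occurred once in the windows of Cd3d and Cd3e and 2 times in those of Cd3g and Gzma, and CAGCTG once, in Cd3g. Over 32851 such windows, 20.2% held CAGGTG, 2.88% held it 2 or more times, 16.3% held CAGCTG and 32.9% held either. The 2 motifs do not share a position in these windows, and a match describes letters only, not binding. These genes were picked with their results known, and no gene higher in DN1 is shown. Loss of E2A and HEB was induced in both precursors, and a part of the motifs in the difference was not tested.

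Cd3e (chr9:44998740-45009627, minus strand), the epsilon chain, was at 6.56 and 7.61 CPM in DN1 and 136 and 160 CPM in DN3 (log2 change -4.38 ± 0.35, adjusted p = 7.73e-08). Cd3d (chr9:44981786-44987339, plus strand), the delta chain, was at 15.6 and 16.7 against 210.2 and 264 CPM (-3.88 ± 0.30, adjusted p = 5.08e-08). Cd3g (chr9:44969572-44980431, minus strand), the gamma chain, was at 2.57 and 3.32 against 22.3 and 30.9 CPM (-3.18 ± 0.30, adjusted p = 8.01e-07). Replicates agreed closely for all 3, and the groups were far apart. Cd247, the zeta chain that lies on another chromosome, differed less, at 54.1 and 63.9 against 135 and 156 CPM (-1.30 ± 0.20, adjusted p = 0.000144). Among the kinases, Zap70 was at 6.3 and 8.99 against 91.3 and 82 CPM (-3.50 ± 0.36, adjusted p = 1.69e-06). The adhesion receptor Cd2 was at 4.76 and 4.29 against 69.1 and 86.9 CPM (-4.10 ± 0.38, adjusted p = 5.69e-07). The adaptors Lat (-0.82 ± 0.16, adjusted p = 0.00141) and Lcp2 (-0.69 ± 0.11, adjusted p = 0.00011) were lower by less. The kinase Lck, at 238 and 282 against 400.4 and 371 CPM, lost its call without DN3 replicate a (adjusted p = 0.0663), and Cd27 without DN1 replicate b (0.0546). Cd8a had no count in DN1 and 48 in DN3, at least 18.7-fold lower, and Cd8b1 did not pass in any of the 4 fits that leave out a library (adjusted p = 0.091, 0.115, 0.0739 and 0.112). Cd28, Cd4, Cd5, Cd6 and Ptpn22 did not pass, and Cd4 was at 1.29 and 0.969 CPM in DN1 and 1.22 and 1.41 CPM in DN3.

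The recombination and T cell receptor constant genes gave 4 lower and 1 higher in DN1 of 11 (all 5 also without DN1 replicate b; median -0.802). Trbc2, a beta chain constant gene, was at 1016 and 804 CPM in DN1 and 1821 and 1686 CPM in DN3 (log2 change -0.95 ± 0.12, adjusted p = 2.44e-05), and Trdc, the delta constant gene, at 92.7 and 91.2 against 166 and 155 CPM (-0.80 ± 0.11, adjusted p = 3.43e-05). The gamma constant genes split, Tcrg-C1 higher in DN1 at 1033 and 1043 against 669 and 632 CPM (0.68 ± 0.14, adjusted p = 0.00183) and Tcrg-C2 lower at 367 and 285 against 593 and 544 CPM (-0.80 ± 0.15, adjusted p = 0.000865). Near-identical copies within the beta and the gamma constant genes could share reads, so these values are uncertain. Dntt, the terminal transferase that adds bases at receptor gene joints, was at 14.2 and 11.6 against 92.8 and 29 CPM (adjusted p = 0.00107, but 0.0541 without DN3 replicate a), with DN3 replicate a standing above DN3 replicate b. Rag1 and Rag2, the recombinase genes, did not pass: Rag1 was at 2.19 and 4.57 CPM in DN1 and 12.9 and 2.67 CPM in DN3, and Rag2 was under 2 CPM in all 4 libraries.

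Of 18 Notch pathway genes and T specification factors, 9 were lower in DN1 and 2 higher (7 and 1 also without DN1 replicate b; median -0.606). Notch1, the receptor engaged by DL1, was at 48 and 27 CPM in DN1 and 132 and 112 CPM in DN3 (log2 change -1.70 ± 0.20, adjusted p = 6.12e-06). Of its targets, Dtx1 was at 112 and 203 against 385 and 604 CPM (-1.65 ± 0.28, adjusted p = 0.000326) and Hes1 at 84 and 37.2 against 121 and 119 CPM (-0.98 ± 0.23, adjusted p = 0.00487), while Nrarp did not pass. The DN1 libraries were lower for all 3 that passed, with DN1 replicate b the lower of the 2 for Notch1 and Hes1. Among T lineage factors, Lef1 was at 21.9 and 13 against 149.5 and 113 CPM (-2.90 ± 0.40, adjusted p = 4.26e-05) and Satb1, a chromatin organiser, at 168 and 223 against 422 and 486 CPM (-1.22 ± 0.18, adjusted p = 7.37e-05). Notch2 lost its call without DN1 replicate b or DN3 replicate b (adjusted p = 0.172 and 0.124) and Notch3 without DN1 replicate b or DN3 replicate a (0.209 and 0.924). The 2 higher genes were Hey1, a Notch target at under 3 CPM (adjusted p = 0.0629 without DN1 replicate b and 0.259 without DN3 replicate b), and Myb (adjusted p = 0.161 without DN1 replicate a and 0.315 without DN3 replicate b), so neither held without DN3 replicate b.

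Of 16 progenitor genes tested, 8 were higher in DN1 and none lower (7 also without DN1 replicate b), with a median log2 change of 3.99 (2.66 with Lmo2 and Hoxa9, at 0 counts in DN3, set to their lower bound and Gfi1b, at 3 counts or fewer in both groups, as fitted). Apart from Kit, Cd44 and Mef2c, all were under 20 CPM in each of the 4 libraries. Cd34, a surface protein of stem and progenitor cells, had 217 counts over the DN1 libraries (18.4 and 10.2 CPM) and 1 over the DN3 libraries, a ratio of 186 (95% counting interval 33 to 7380). Hhex, a homeobox factor of early progenitors, had 167 against 3 (ratio 47.7, 16 to 234), and Bcl11a, a zinc finger factor, had 67 against 2 (28.7, 7.64 to 242). DN1 replicate a was the higher of the DN1 libraries for each of these 3. Lyl1, a helix-loop-helix partner of E proteins, was at 7.84 and 4.43 against 0.348 and 1.26 CPM (2.83 ± 0.56, adjusted p = 0.00126), Meis1 at 4.5 and 5.81 against 0.522 and 0.141 CPM (3.97 ± 0.55, adjusted p = 4.54e-05), and Cd44, the adhesion receptor used to sort DN1 cells, at 34.3 and 51.2 against 6.96 and 8.15 CPM (2.49 ± 0.28, adjusted p = 3.85e-06). Spi1, which encodes PU.1, had 48 counts against 1 and an adjusted p of 0.068 without DN1 replicate a, and Mef2c, a factor also made in muscle, was at 2.19 and 38.8 against 0.348 and 0.703 CPM and had an adjusted p of 0.141 without DN1 replicate b, the library with muscle RNA.

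Kit (chr5:75574916-75656722, plus strand), the receptor for stem cell factor, did not follow that list. It was at 146 and 82.5 CPM in DN1 and 138 and 204 CPM in DN3, with the groups overlapping (log2 change -0.58 ± 0.27, adjusted p = 0.136), although it was lower in DN1 when DN1 replicate a was left out (adjusted p = 0.00788). Cpa3, a carboxypeptidase of mast cells and of early progenitors, was at 308 and 268 CPM in DN1 and 50.3 and 63.3 CPM in DN3 (2.34 ± 0.22, adjusted p = 6.94e-07). It was the single mast cell gene of 7 tested that passed. The defining mast cell genes Fcer1a, Ms4a2, Tpsb2, Tpsab1 and Cma1 were too low to test in all groups, and the summed list was at 457 and 354 CPM in DN1 and 193 and 272 CPM in DN3, most of it Kit and Cpa3.

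The E protein and Id list gave 4 higher in DN1 and 1 lower of 9 (all 5 also without DN1 replicate b; median 0.986, or 0.611 with Lmo2, at 0 counts in DN3, set to its lower bound). Tcf12, already given above, was lower in DN1 by 0.57 on the log2 scale (SE 0.10, adjusted p = 0.000638), and Tcf3 did not pass. Tcf4, which encodes the third E protein E2-2 and was not floxed, was at 89.9 and 84 CPM in DN1 and 62.6 and 51.5 CPM in DN3 (0.61 ± 0.097, adjusted p = 0.000171). Id1 was higher at 24.4 and 15.6 against 10.6 and 9.7 CPM (adjusted p = 0.00773, but 0.0837 without DN1 replicate a and 0.0782 without DN3 replicate b), and Id3 at 106 and 68 against 78.1 and 61.4 CPM did not pass.

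Chemokine and trafficking receptors went both ways: of 10 tested, 2 were higher in DN1 and 5 lower (2 and 3 also without DN1 replicate b; median -0.424). Ccr2, a receptor of ILC precursors and monocytes, was at 396 and 193 CPM in DN1 and 26.3 and 23.1 CPM in DN3 (log2 change 3.58 ± 0.32, adjusted p = 3.26e-07), and Cx3cr1 was the other one higher. Lower were S1pr1, Ccr7, a lymph node homing receptor, at 16.1 and 12.7 against 50.1 and 41.2 CPM (-1.66 ± 0.26, adjusted p = 0.000164), and Ccr9, a thymus and gut homing receptor, at 4.5 and 6.09 against 24.2 and 35.1 CPM (-2.49 ± 0.53, adjusted p = 0.00242). The groups did not overlap for any of these receptors. Cxcr4 did not pass without DN1 replicate b (adjusted p = 0.484) or DN3 replicate a (0.786), and Ccr4 was treated above. Cxcr6, which marks ILC precursors, overlapped at 32.4 and 54.4 against 23 and 52.3 CPM.

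ILC3 genes were few, with Il23r, Il22, Il17a, Il17f and Ccr6 too low to test and 2 higher and 1 lower of the other 5. Ltb, a lymphotoxin chain, was lower in DN1 at 24.8 and 28.5 against 83.7 and 98.1 CPM (log2 change -1.77 ± 0.23, adjusted p = 1.82e-05), Il1r1 was higher at 4.63 and 5.95 against 0.870 and 0.844 CPM (2.60 ± 0.55, adjusted p = 0.00215), and Ahr was higher but not without DN1 replicate b, DN3 replicate a or DN3 replicate b (adjusted p = 0.157, 0.0633 and 0.139). Of 8 interferon response genes tested, 4 were lower in DN1 and none higher. The calls of Isg15, Ifit1 and Ifit3 rested on DN3 replicate b, without which their adjusted p-values were 0.0764, 0.454 and 0.858 (Ifit1 also lost the call without DN1 replicate a, 0.155), and 1 gene of the list passed there.

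Beta globin transcripts were higher in DN1. Hbb-bt was at 40.9 and 17.7 CPM in DN1 and 0 and 1.55 CPM in DN3, and its near-identical neighbour Hbb-bs, with which it could share reads, at 8.87 and 10.4 against 0.174 and 0.422 CPM (adjusted p = 0.000507 and 0.00217). The erythroid list was not uniform, since the red cell factor Gata1 was lower in DN1 at 3.21 and 0.415 against 11.3 and 14.6 CPM (log2 change -2.81 ± 0.47, adjusted p = 0.000284) and Klf1 and Alas2 were too low to test. Immediate early genes, which respond to handling and stimulation, gave 2 higher and 2 lower of 13 (1 and 2 also without DN1 replicate b). Jun was higher (1.45 ± 0.23, adjusted p = 0.000164), Junb (-1.23 ± 0.17, adjusted p = 4.41e-05) and Jund (-0.87 ± 0.14, adjusted p = 0.000146) were lower, and Dusp1 was higher but not without DN1 replicate b or DN3 replicate b (adjusted p = 0.0689 and 0.112). Of 10 p53 target genes, 2 passed, Trp53inp1 and Phlda3, both lower. Trp53inp1 did not pass without DN1 replicate b or DN3 replicate a (adjusted p = 0.0893 and 0.238), and Phlda3 passed in none of the 4 fits that leave out a library (adjusted p = 0.115, 0.0883, 0.113 and 0.193).

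Cell division genes were 6 higher and none lower of 17, with a list median of 0.226, 3 of them also without DN1 replicate b. Mcm5, of the replication helicase, was at 208 and 287 CPM in DN1 and 153 and 142 CPM in DN3 (log2 change 0.75 ± 0.12, adjusted p = 0.000146) and Tyms, thymidylate synthase, at 87.2 and 85.8 against 63.3 and 62.3 CPM (0.46 ± 0.098, adjusted p = 0.00224). Ccnb1 did not pass without DN3 replicate b (adjusted p = 0.0684), nor did Ccnb2 without DN1 replicate b or DN3 replicate b (0.499 and 0.191). Cdc20 and Rrm2 did not pass without DN1 replicate b, DN3 replicate a or DN3 replicate b (adjusted p = 0.54, 0.0907 and 0.0678, and 0.555, 0.225 and 0.1). The count was 9 higher and 2 lower without DN1 replicate a, 5 higher without DN3 replicate a and 2 higher without DN3 replicate b. Mki67 and Top2a did not pass, and Top2a was at 918 and 922 against 958 and 889.5 CPM.

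The difference between the precursors was then followed back to day 5, 1 day after tamoxifen, and day 4, before it. On day 5, 3282 genes (21.6%) differed between DN1 and DN3 floxed cells, 1753 higher (11.6%) and 1529 lower (10.1%). The count was 1875 without the day 5 DN1 replicate a and 2167 without the day 5 DN3 replicate b. Of the genes higher on day 7, 816 were higher on day 5 too (45.8% of the day 7 list and 46.5% of the day 5 list) and 22 were lower there. Of the genes lower on day 7, 660 were lower on day 5 (42.2% and 43.2%) and 40 higher. On day 4, 4358 genes (28.7%; 18.1% higher and 10.6% lower) differed (2360 without the day 4 DN1 replicate b and 2409 without the day 4 DN3 replicate b), and the shared genes were 675 higher (37.9% of day 7, 24.6% of day 4) and 362 lower (23.2% and 22.4%), while 165 and 257 passed on day 4 with the opposite sign. These comparisons use separate libraries. Of the 30 named genes, 30 had the same sign on day 5, and 26 passed there. On day 4, 27 of the 30 passed, 25 with the sign of day 7 and 2, S1pr1 and Ecm1, with the opposite sign. S1pr1 was then higher from DN1, at 72.1 and 79.8 against 32.9 and 21.2 CPM (log2 change 1.49 ± 0.36, adjusted p = 0.00473). The day 4 cells were not sorted for tdTomato. Of 15 stromal genes tested, 13 were higher from DN1 on day 4 and 3 on day 5. Of 5 sex-linked genes tested, 4 were higher from DN1 on day 4 and 0 on day 5. The part of stromal RNA or of sex in the day 4 differences, S1pr1 and Ecm1 included, was not tested.

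Zbtb16, the CD3 genes and most progenitor genes already differed on day 5, and also on day 4, before tamoxifen. The day 4 log2 change was 3.90 ± 0.54 for Zbtb16 (adjusted p = 4.39e-05) and -2.49 ± 0.31 for Cd3e (adjusted p = 9.60e-06). All 18 CD3 and signalling genes tested were lower in DN1 on day 4, and 14 of 16 progenitor genes were higher. Cd3e was at 9.54 and 8.89 CPM in DN1 and 109 and 145 CPM in DN3 on day 5 (log2 change -3.79 ± 0.34, adjusted p = 1.45e-07), and 14 of 16 progenitor genes passed there, all higher in DN1. Granzymes were different. Gzmb was at 41.4 and 45.3 CPM in DN1 and 37.6 and 66.5 CPM in DN3 on day 5 (-0.26 ± 0.48, adjusted p = 0.759), far below its day 7 level in either. Gzma was at 1115 and 1179 against 1728 and 2119 CPM on day 5 (-0.75 ± 0.17, adjusted p = 0.0037) and at 909.7 and 1070 against 611 and 659 CPM on day 4. The test of the change of the DN1 minus DN3 difference from day 5 to day 7 passed for 728 genes (4.80%), 287 toward DN1 (1.89%) and 441 toward DN3 (2.91%), and 6 of the 15 granzyme and effector genes were among them, all toward DN3. The count of 728 was 2407 without the day 7 DN1 replicate a, 307 without the day 7 DN3 replicate b, 377 without the day 5 DN1 replicate a and 324 without the day 5 DN3 replicate a.

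Gzma moved by -2.45 ± 0.25 on the log2 scale in that test (adjusted p = 1.26e-05), a call kept in all 8 fits that leave out a library of either day. Gzmb moved by -2.65 ± 0.65 (adjusted p = 0.0232), and lost the call without day 7 DN3 replicate b, day 5 DN1 replicate a, day 5 DN1 replicate b or day 5 DN3 replicate a (highest adjusted p = 0.112). The other 4 were Nkg7, Cst7, Srgn and Ccl5, of which Ccl5 lost the call in 5 of the 8 fits. Kit moved by -3.65 ± 0.42 (adjusted p = 3.85e-05): on day 5 it was at 78.3 and 100 CPM in DN1 and 9.31 and 11.9 CPM in DN3, and on day 7 both groups stood near or above 80 CPM. Cpa3 moved the same way (-3.59 ± 0.34, adjusted p = 8.54e-06), from 308 and 344 against 3.63 and 7.04 CPM on day 5. In both genes the DN3 libraries stood far higher on day 7 than on day 5. S1pr1 stood at 3.84 and 12.2 CPM in DN1 and 8.34 and 22 CPM in DN3 on day 5, when it did not pass (adjusted p = 0.153), and moved by -2.62 ± 0.58 (adjusted p = 0.0129), a call lost without day 7 DN3 replicate b, day 5 DN1 replicate b or day 5 DN3 replicate a (highest adjusted p = 0.264). Il7r moved toward DN1 by 2.82 ± 0.35 (adjusted p = 7.59e-05), from 14.8 and 11.8 against 28.7 and 14.4 CPM on day 5, and the p53 target Cdkn1a toward DN3 by -1.96 ± 0.21 (adjusted p = 1.70e-05), with both kept in all 8 fits. Of 17 cell division genes, 6 passed, all toward DN1, and of these Birc5 alone kept its call in all 8 fits, while Ccna2 and Ccnb2 lost it in 1, Ccnb1 in 2, Cdc20 in 4 and Tyms in 5.

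**Figure D4:**
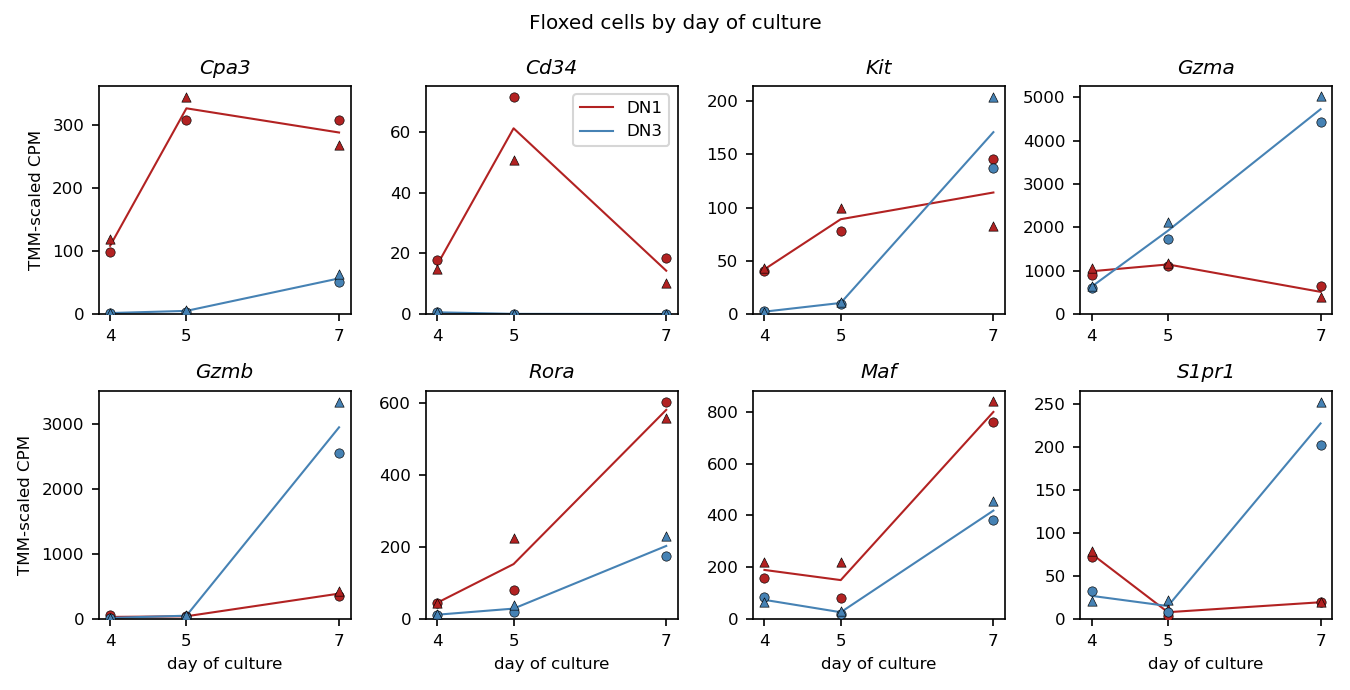
CPM of 8 genes in floxed cells from DN1 and DN3 on days 4, 5 and 7, on linear axes from 0, with a point for each library and lines joining group means. Gzmb and S1pr1 separate on day 7 with DN3 the higher, while Kit and Cpa3, low from DN3 on day 5, are raised from DN3 on day 7 and Kit no longer separates the precursors.

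Control cells with intact E2A and HEB, cultured alongside, show how far the 2 precursors differ without the deletion. On day 7, 3431 genes (22.6%; 11.4% higher and 11.2% lower) differed between DN1 and DN3 controls (2163 and 2240 without DN1 replicates c and d, 2275 and 2040 without DN3 replicates c and d). Of the genes higher in floxed DN1, 717 were higher in control DN1 (40.3% of the floxed list, 41.4% of the control list), and 599 were lower in both (38.3% and 35.2%), while 55 and 65 passed with the opposite sign. Of the 30 named genes, 27 passed in controls. The difference between the floxed and the control comparison was itself past the threshold for 1182 genes (7.79%), 578 toward DN1 (3.81%) and 604 toward DN3 (3.98%). This count was 369 with the 8 day 7 libraries alone and 3150 without the DN1 floxed replicate a, 847 without DN3 floxed replicate a and 601 without DN3 floxed replicate b. It was 648 and 637 without the DN1 control replicates c and d and 763 and 497 without the DN3 control replicates c and d.

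Id2 was opposite in sign in controls, at 143 and 139.9 CPM from DN1 and 212 and 189.5 CPM from DN3. That control difference did not pass (log2 change -0.50 ± 0.20, adjusted p = 0.0818). The difference between the comparisons was 1.65 ± 0.28 on the log2 scale (adjusted p = 0.00151). Il7r was alike in controls, at 43.9 and 39.5 against 34.6 and 37.1 CPM (difference 1.91 ± 0.33, adjusted p = 0.00164). Cx3cr1 was higher in DN1 with either genotype and by more in floxed cells (difference 1.91 ± 0.49, adjusted p = 0.0219), though not past the threshold without DN3 floxed replicate b, DN1 control replicate c or DN3 control replicate c (highest adjusted p = 0.152). For Gzma the wider gap in floxed cells was toward DN3, since it was at 1397 and 1358 CPM in DN1 controls and 2305 and 1731 CPM in DN3 controls (difference -2.64 ± 0.25, adjusted p = 3.08e-06). The granule genes Nkg7, Cst7 and Srgn also shifted toward DN3 in this test (differences -1.69 ± 0.37, -1.47 ± 0.26 and -1.43 ± 0.29, adjusted p = 0.00804, 0.00222 and 0.00541). Theirs was not a wider gap in floxed cells, where none of them passed. The floxed log2 changes were -0.0187, 0.442 and -0.112 (adjusted p = 0.982, 0.0957 and 0.744). Gzmb was at 44.3 and 27.9 against 192 and 134 CPM in controls, and its difference did not pass (-0.74 ± 0.63, adjusted p = 0.521). Zbtb16 was at 9.35 and 5.26 against 0.140 and 0 CPM in controls, and its difference did not pass either (adjusted p = 0.259).

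The neighbouring genes Cd3d, Cd3e and Cd3g separated the precursors more widely in floxed cells, while the difference of Cd247 did not pass. Of the 18 CD3 and signalling genes, 4 passed this test toward DN3 and 3 toward DN1. Cd3e was at 43.1 and 44.4 CPM in DN1 controls and 174 and 198 CPM in DN3 controls (difference -2.29 ± 0.44, adjusted p = 0.00361), and Cd3g at 82.6 and 79.3 against 100.4 and 104 CPM (difference -2.84 ± 0.38, adjusted p = 0.000144). Cd4 showed the reverse. It was at 1.06 and 1.22 CPM in DN1 controls and 30.3 and 39.1 CPM in DN3 controls and near 1 CPM in all 4 floxed libraries (difference 4.69 ± 1.11, adjusted p = 0.0132). The Notch target Hes1 was also reversed, at 148 and 151 against 62.1 and 64.1 CPM in controls (difference -2.22 ± 0.32, adjusted p = 0.000326) and Nrarp, another target, which did not pass in floxed cells, had a difference of -2.40 ± 0.29 (adjusted p = 5.31e-05). Kit and Il2ra, higher from DN1 in controls, were not so in floxed cells (differences -2.55 ± 0.40 and -1.59 ± 0.14, adjusted p = 0.00068 and 2.39e-06). In the 8 fits that leave out 1 day 7 library, the differences of Id2, Il7r, Gzma, Cst7, Srgn, Cd3e, Cd3g, Cd4, Hes1, Nrarp, Kit and Il2ra kept their calls, the highest adjusted p among them being 0.0464 (Cd4), and Nkg7 did not without DN3 control replicate d (adjusted p = 0.0556). Of the 17 cell division genes, 8 were lower in DN1 controls than in DN3 controls and none higher, and for 12 the difference between the comparisons passed, all toward DN1. Among these 12, Cdk1, Aurka and Cdc20 each lost the call in 3 or more of the 8 fits. Since the floxed and control libraries also differ in sex-linked genes, the part of sex in these differences was not tested.

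**Figure D5:**
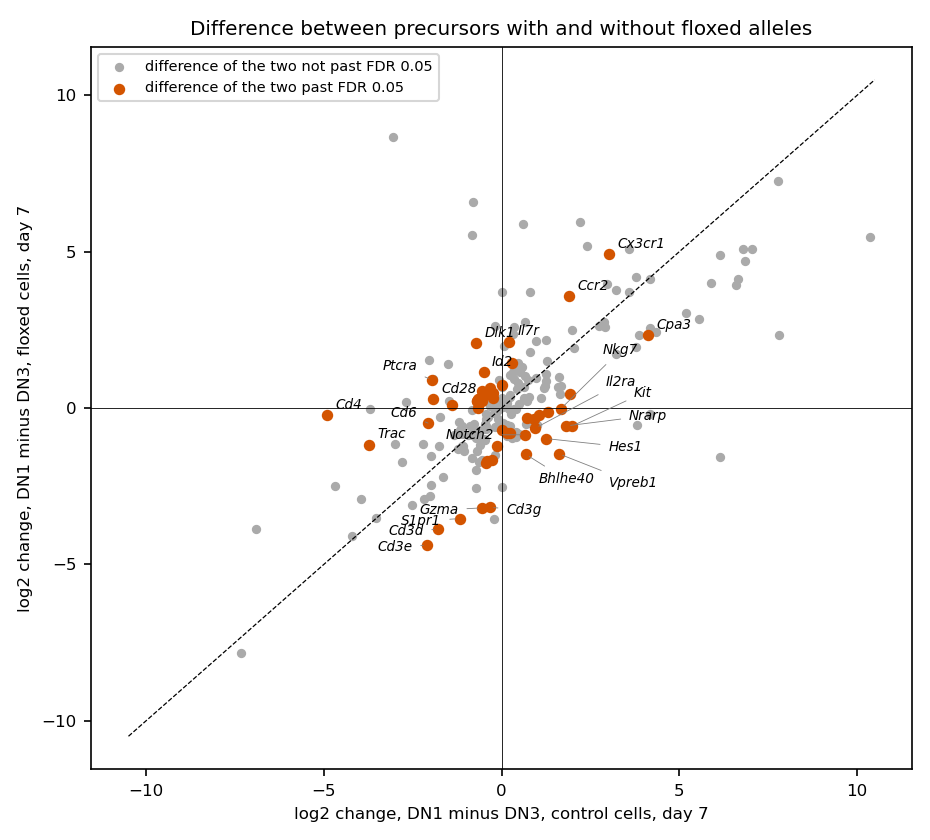
Log2 change from DN3 to DN1 on day 7 in control cells (horizontal axis) and in floxed cells (vertical axis) for the listed genes, without muscle and sex-linked genes and genes that are not reported. Orange points passed the test of the difference, names stand at those over 1.5 apart, and on the dashed line both changes are equal; Id2 lies above the line and Gzma, Cd3e, Cd3d, Cd3g, Kit and S1pr1 below it.

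Thymic ILC2 of mice with floxed E2A and HEB and a plck-Cre transgene, isolated directly and held in the same table (replicates 1 and 3), are set beside the cultures as levels only, scaled over all 26 libraries of the table. Both were low in Xist (0.322 and 0.317 CPM) and high in Y-linked Ddx3y (187 and 156 CPM), unlike the floxed cultures. Il1rl1 was at 263 and 588 CPM in thymic ILC2, against 0 and 0.543 CPM in the DN1 and 0.678 and 1.1 CPM in the DN3 cultures. Il7r was at 413 and 584 CPM there, above the 56.7 and 49.2 CPM from DN1 and the 10.3 and 13.7 CPM from DN3. Rora was at 277 and 422 CPM, above both DN3 and below both DN1 cultures, and Lmo4 at 428 and 622 CPM overlapped the DN3 cultures and lay below the DN1 ones. Id2 at 15.4 and 51.4 CPM and Gata3 at 143 and 222 CPM lay below all 4 cultures (287 to 926 and 417 to 676 CPM), and Zbtb16 at 6.76 and 4.12 CPM overlapped the DN3 cultures (5.77 and 2.75 CPM) and lay below the DN1 ones. Both thymic ILC2 libraries also differed widely from the 4 cultures in other genes, in both directions. Mki67 was at 7563 and 4168 CPM, against 174 to 213.9 CPM in the cultures. Cdk1 was at 37.66 and 61.54 against 277.3 to 409 CPM, and Fos at 0 in both against 57.87 to 140.9 CPM. The part of library type or cell composition in the low Id2 and Gata3 was not tested. Gzmb had no count in either thymic ILC2 library and Gzma was at 90.5 and 72 CPM, below every culture library of day 7. The CD3 chains were not alike: Cd3e at 209 and 365 CPM and Cd3g at 102 and 72 CPM lay above all 4 cultures, while Cd3d at 28 and 13.6 CPM lay below both DN3 cultures (205 and 258 CPM), as did Cd247, Zap70 and Cd2.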

How the data were processed

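RNA-seq libraries of cultured thymocytes were compared. The authors deposited raw counts per Ensembl gene, whole numbers with no normalization, for 26 libraries and 48881 genes. Genome build mm10 and DESeq2 stand in the submitters' processing notes without versions, while for aligner, counting program and annotation a name was not given in the sources used here. Names and positions came from GENCODE M21 (48664 of the gene IDs matched) and promoter sequences from RefSeq (GRCm38.p6).

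The 24 culture libraries were fitted together in edgeR 4.0.16 (R 4.3.3) with a mean for each of 12 groups of 2, TMM scaling, filterByExpr (minimum count 10; 15172 genes kept), 12 residual degrees of freedom and a common coefficient of variation of 0.138. Quasi-likelihood p-values were adjusted by Benjamini-Hochberg over all tested genes, with a threshold of 0.05. Log2 changes are DN1 minus DN3, ± their SE. Fold changes against 0 counts use a floor of 3 counts over the group, and ratio intervals cover counting error only. The 30 named genes are the 15 largest changes each way, ranked by the smaller of the changes with and without DN1 replicate b, among genes passing both, not overlapping between groups and with a mean of 20 CPM or more in the higher group, without predicted genes, pseudogenes, receptor gene segments and sex-linked genes. Any list member could also be named; some members are in the counts of their lists but are not reported here by name. The samples and gene lists were chosen with earlier results of these data known. Scripts were tested on simulated data. Alternatives were DESeq2 1.42.0, RLE scaling, no filter, a replicate term, fewer libraries and no muscle genes.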

Additional observations from a re-analysis of the deposited data

Results flagged for a closer look

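Among the 30 named genes and the listed genes that changed sign, for 15 the difference between DN1 and DN3 cells itself differed, by an edgeR test of that difference, between floxed and control cells or between days. Values are log2 differences, DN1 minus DN3. Floxed minus control on day 7, the gap was 4.96 for St3gal6, a sialyltransferase, 1.91 for Cx3cr1 and 1.72 for Napsa, an aspartic protease, and -2.29 for Cd3e, -2.09 for Cd3d and -2.36 for S1pr1. Without 1 of the 8 day 7 libraries, the adjusted p reached 0.0616 for St3gal6 (DN3 control replicate d), 0.152 for Cx3cr1, 0.0583 for Napsa (DN3 floxed replicate b) and 0.13 for S1pr1, and stayed at or under 0.019 for Cd3e and 0.016 for Cd3d.

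DN1 minus DN3 changed sign between control and floxed cells, passing in both, for 120 of all genes tested and for 6 of the listed genes: Bhlhe40 (-2.16), Il2ra (-1.59) and Hes1 (-2.22) toward DN3, and the cell division genes Ccnb2 (1.08), Tyms (0.893) and Rrm2 (0.907) toward DN1. The highest adjusted p without 1 library was 0.0371 among these 6 (Ccnb2). Ccnb2 and Rrm2 were not called in the floxed comparison without DN1 replicate b. Sex-linked genes separate floxed from control libraries in the same way, and their part in these differences was not tested.

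Day 7 minus day 5 in floxed cells, the gap was 6.84 for Hmga2, a value that depends on the prior count because DN3 had no Hmga2 counts on day 7, -1.69 for Napsa, -2.51 for Chn2, a Rac GTPase regulator, -3.21 for Iigp1 and -2.62 for S1pr1. Without 1 of the 8 libraries the adjusted p stayed at or under 0.0342 for Iigp1, and reached 0.176 for Hmga2, 0.174 for Napsa, 0.151 for Chn2 and 0.264 for S1pr1.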

How the results depend on the processing

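Depth limits genes under a few CPM, and 2 libraries a group limit every p. The count of genes that differ on day 7 (3343) was 3131 with DESeq2, 3366 with RLE scaling, 3645 with no filter and 3332 without muscle genes. Fitting only the libraries compared gave 587 in place of 3343, 369 in place of 1182 for floxed minus control and 78 in place of 728 for day 7 minus day 5, and with no filter the last 2 counts were 1900 and 1253. Fitting only the libraries compared gave 2406 in place of 3282 on day 5 and 4089 in place of 4358 on day 4. In controls the count rose, to 5076 in place of 3431. All these fits of single comparisons hold fewer samples, and the cause of the shifts was not tested.

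Leaving out 1 library gave 1806 to 5172 genes on day 7, 1875 to 2592 on day 5, 2360 to 3392 on day 4, 2040 to 2275 in controls, 497 to 3150 for floxed minus control, 307 to 2407 for day 7 minus day 5 and 1188 to 1448 of the 1879. The log2 change of the muscle genes Myh1 and Mylpf turned to -0.228 and -0.344 without DN1 replicate b (highest without another library, 10.2 and 5.45). The median log2 change of all genes, 0.00685, was 0 to 0.0155 under the other tools, scalings and filters. The requirement of a call without DN1 replicate b was applied again within each setting, a choice made after the data were seen. Among the 4 libraries alone it left 587 in place of 1879, since all 587 were among the 1938 called in the remaining 3.

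The letters a and b are not known to pair the samples, and the differences between a and b correlated between DN1 and DN3 at -0.24, 0.125 and 0.118 on days 4, 5 and 7. With the letter as a block the counts were 3401 (day 7), 3285 (day 5), 4388 (day 4), 3457 (control), 1260 (floxed minus control), 757 (day 7 minus day 5) and 1776 (also without DN1 replicate b), and of the listed and named genes 7 gained and 2 lost the day 7 call.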
